A study of Mus musculus with 14 samples.

Results

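Receptors for serotonin, acetylcholine and the adrenergic transmitters were followed gene by gene in the cortex of mice lacking Fmr1. The members were taken by symbol from the deposited table of counts per gene: every symbol that opens with Htr and a digit, the Chrm genes, the Chrn genes of the alpha, beta, delta, epsilon and gamma subunits, and the Adra and Adrb genes. This rule, which used no measured value, found 44 of 23412 genes. They are 14 serotonin receptor genes, 5 muscarinic and 16 nicotinic acetylcholine receptor genes, and 9 adrenergic receptor genes.

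Serotonin reaches the cortex from the raphe nuclei, noradrenaline from the locus coeruleus and acetylcholine mainly from the basal forebrain, and the receptors for all of these transmitters tune how cortical neurons answer glutamate and GABA. Most of the receptors are coupled to G proteins. Adra1, Htr2, Chrm1, Chrm3 and Chrm5 receptors act through Gq, which raises calcium. Adra2, Htr1, Chrm2 and Chrm4 receptors act through Gi, which lowers cyclic AMP, and Adrb, Htr4, Htr6 and Htr7 receptors act through Gs, which raises it. Nicotinic receptors and the Htr3 receptor are ion channels built from subunits.

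All mice carried a floxed Rpl22 allele and a CamK-driven Cre, which together tag a ribosomal protein in neurons with an active CamK promoter. The control genotype is written Rpl22flox/flox;CamKCre+, and the knock-out (KO) genotype has Fmr1X-Y in addition. The protocols name brain lysates, from tissue labelled as cortex, and no pull-down of tagged ribosomes, so the libraries are taken here as bulk cortex. Age is not given in the sources used here. For RNA-seq the controls are mice 1, 3, 6 and 8, and mice 2, 4, 5 and 7 are KO. In ribosome profiling, which sequences the mRNA fragments that ribosomes protect from nuclease (footprints), the controls are mice 1, 3 and 9, and mice 2, 4 and 10 are KO.

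Total counts were 8847547 to 11371851 in the RNA libraries and 4124065 to 6033030 in the footprint libraries. Levels are given in CPM, counts scaled to library size with TMM factors, and log2 fold changes are KO relative to control with their standard error (SE). CPM is not corrected for gene length, so it is compared within a gene and not between genes. Fmr1 RNA was 71.2 to 89.9 CPM in control and 18.1 to 23.4 CPM in KO mice, and its footprints were 111 to 115 and 5.81 to 8.56 CPM, so the labels held in every library. Slc17a7, the vesicular glutamate transporter of cortical excitatory neurons, averaged 1445 CPM in control RNA. Some RNA libraries differed more within a group than others. A chi-square statistic per degree of freedom, near 1 where 2 libraries differ by sampling alone, was 1.18 to 1.32 among KO mice 2, 4 and 7 but 5.64 to 6.02 between these and KO mouse 5. It was 1.15 to 1.42 between footprint libraries of one genotype. Among control RNA libraries it was 1.99 between mice 1 and 3, 10.6 to 11.8 between these and mouse 8, and 4.12 to 4.56 between these and mouse 6, which was about as far from mouse 8 (4.03). The labels number KO mice 2, 4 and 7 as separate mice, and the counts alone cannot tell whether their 3 libraries come from separate animals. If they do not, the SEs and p-values in RNA that count these libraries as separate mice are too small. Footprint libraries of one genotype lay about as close (1.15 to 1.42). The same doubt therefore holds for the SEs and p-values in footprints. Markers of the choroid plexus, a tissue outside the cortex, summed to 286 CPM in control mouse 8 and 123 CPM in KO mouse 5, against 8.58 to 24.4 CPM in the other RNA libraries. The 12 immediate early genes, which neurons switch on with activity, summed to 271 to 283 CPM in controls 1, 3 and 6 and to 1164 to 1202 CPM in KO mice 2, 4 and 7, with 563 CPM in control mouse 8 and 514 CPM in KO mouse 5. All 12 were called higher in KO mice in both assays. The part of these genes in the receptor results was not tested. RNA results on the receptors are also given without control mouse 8 and KO mouse 5.

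Of the 44 receptor genes, 28 passed the filter on low counts in RNA and 25 in footprints, and 24 passed in both. Among the genes tested in RNA only were Adra2c, Chrm5 and Htr1d, and Chrnb3 was tested in footprints only. Chrnd and Chrng, the delta and gamma subunits of the muscle receptor, had 0 counts in every library, where 3 counts would correspond to 0.264 to 0.339 CPM in RNA and 0.497 to 0.727 CPM in footprints. Another 13 genes had counts but passed neither filter. These were Adra2b, Adrb3, Chrna1, Chrna2, Chrna6, Chrna9, Chrna10, Chrnb1, Chrnb4, Chrne, Htr2b, Htr3b and Htr5b, and their highest group mean was 1.97 CPM, for Htr5b in control footprints. The muscarinic family was the only one of the 4 with every member tested in RNA (5 of 5), and the nicotinic family had 5 of 16.

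In RNA, 5 of the 28 tested receptor genes were called at an adjusted p under 0.05, and 7.41% of all 13507 tested genes were called (edgeR's quasi-likelihood test, two-sided). Adrb1, Adra1d, Chrm1 and Chrm3 rose, and Htr2c fell. Among all genes 3.53% were called higher and 3.88% lower. In footprints, 4 of 25 were called beside 25.5% of all 12158 genes (11.9% higher, 13.6% lower). Adrb1, Chrm1 and Chrm4 rose and Htr2c fell, so Adrb1, Chrm1 and Htr2c were called in both assays with the same sign. The share of receptor genes called in footprints was thus below that of all genes, and the share called in RNA was above it. Neither difference was tested, and the receptor genes were not compared with genes of like counts. The median log2 fold change of the tested receptor genes was 0.14 in RNA (16 above 0, 12 below) and 0.15 in footprints (17 above, 8 below), beside medians of -0.0013 and 0.0055 over all tested genes. In bulk tissue, fewer cells that express a gene and less RNA per cell cannot be told apart.

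Without control mouse 8 and KO mouse 5, a choice made after seeing the data, 10 of 28 receptor genes were called in RNA beside 22.6% of all genes, 9 of them higher. Those added were Adra1a, Chrm4, Chrna4, Htr1b and Htr1f. The KO group of this setting was mice 2, 4 and 7. If their libraries do not come from separate animals, every SE and p-value given for this setting is too small. With KO mice 2, 4 and 7 summed to 1 library, 0 of 29 were called beside 0.579% of all genes, and with mice 5 to 8 alone 0 of 29 beside 0.652%. The scale matters in footprints. On plain library sizes the median of all genes moved up by 0.059, the share of higher among all called genes went from 46.7% to 66.3%, and 9 receptor genes were called, 8 higher and 1 lower, beside 28.4% of all genes. Those added were Adra1d, Chrm3, Chrna4, Chrna5 and Chrna7, all higher.

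**Figure D1:**
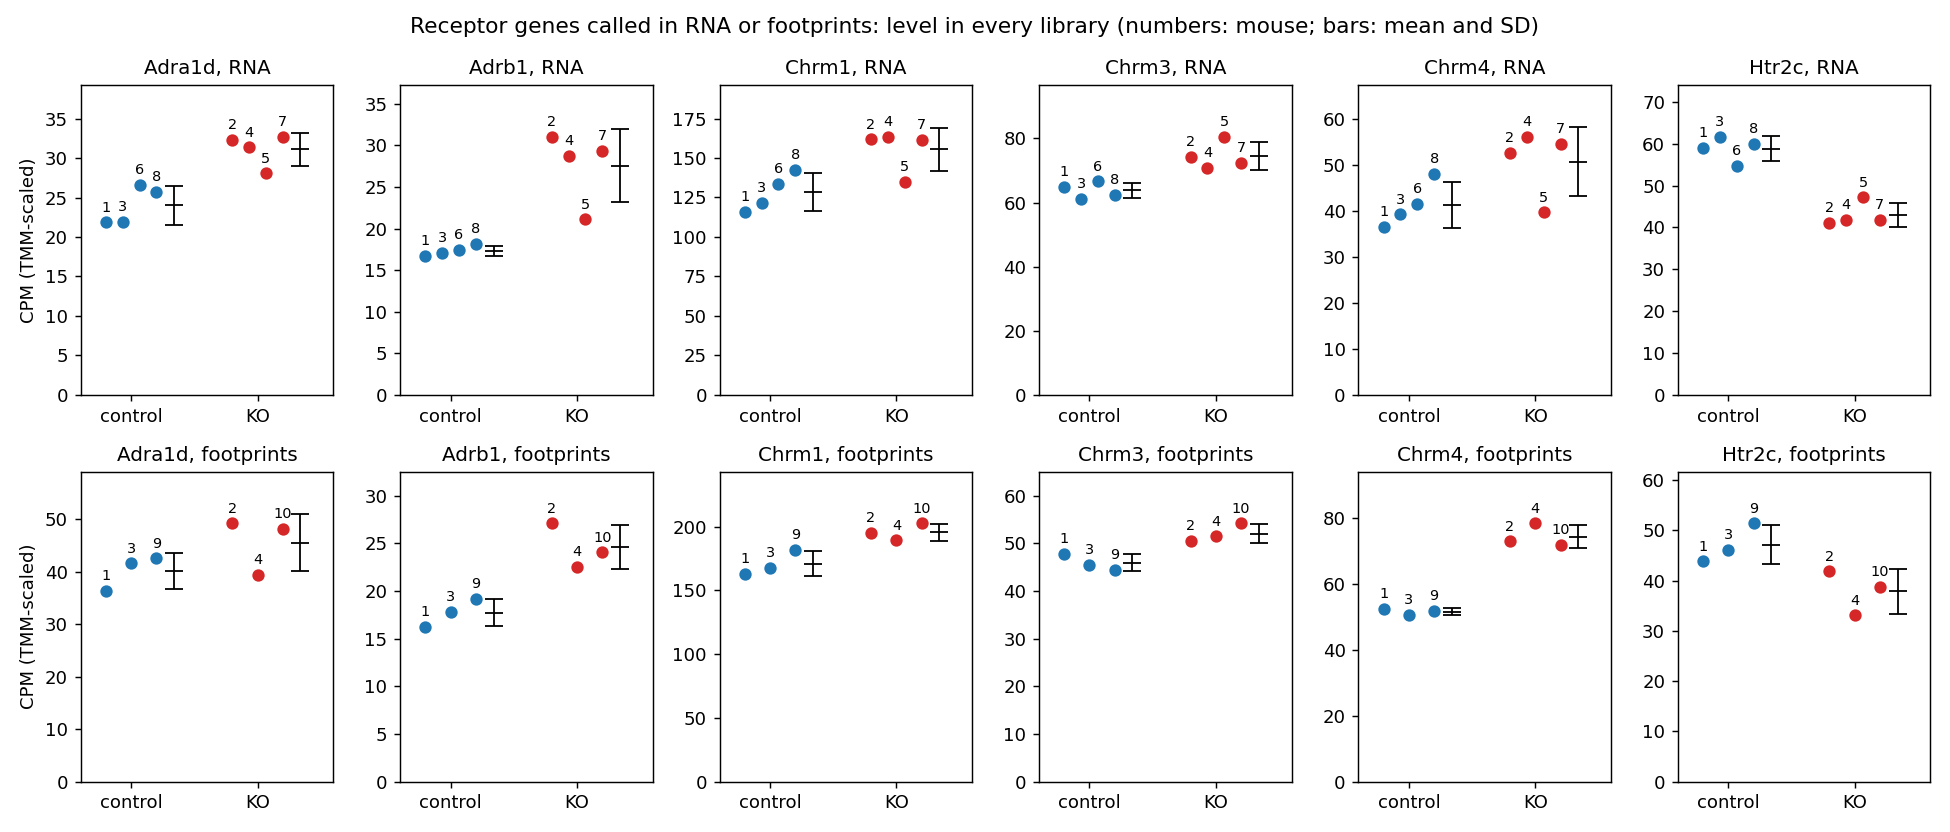
Level of the 6 receptor genes called in RNA (upper row) or footprints (lower row), in CPM with TMM scaling, one point per library labelled with its mouse number, with the mean and SD of each group beside the points. Each axis starts at 0. KO mouse 5 lies nearest to the controls of the 4 KO mice for Adrb1, Adra1d, Chrm1, Chrm4 and Htr2c in RNA, and the footprint groups of Chrm4 lie farthest apart, at 50.4 to 52.3 CPM against 71.8 to 78.3 CPM.

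The start-site regions of the called receptor genes are shown so that those of genes called higher can be read beside that of Htr2c, which was called lower. RefSeq windows (GRCm38.p6, 250 bases before to 50 after a start site, 5′ to 3′ on the gene's strand) matched 32 of the 44 receptor genes and 4 of the 6 called genes, without Chrm1 and Adra1d. Capitals mark 2 motifs searched on both strands: the core of the cyclic AMP response element, TGACG, and the GC box, GGGCGG. The windows are chr19:56721867-56722166 (+ strand) for Adrb1, chr13:10360754-10361053 (- strand) for Chrm3, chr2:91921939-91922238 (+ strand) for Chrm4 and chrX:146962263-146962562 (+ strand) for Htr2c. The start sites of the Chrm3 and Htr2c windows lie inside the outer bounds that RefSeq gives for these genes, so these windows hold sequence within the gene's span.
Adrb1: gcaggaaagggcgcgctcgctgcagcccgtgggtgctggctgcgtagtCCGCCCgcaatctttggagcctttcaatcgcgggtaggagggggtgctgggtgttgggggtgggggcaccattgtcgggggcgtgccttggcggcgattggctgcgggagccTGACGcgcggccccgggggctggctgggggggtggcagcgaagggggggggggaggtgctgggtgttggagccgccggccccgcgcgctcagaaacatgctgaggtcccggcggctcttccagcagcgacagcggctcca
Chrm3: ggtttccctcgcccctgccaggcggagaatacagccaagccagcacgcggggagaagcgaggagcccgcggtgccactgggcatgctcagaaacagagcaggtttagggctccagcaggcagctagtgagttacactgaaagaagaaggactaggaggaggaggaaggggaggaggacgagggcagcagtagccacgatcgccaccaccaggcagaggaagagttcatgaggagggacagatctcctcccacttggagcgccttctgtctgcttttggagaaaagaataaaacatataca
Chrm4: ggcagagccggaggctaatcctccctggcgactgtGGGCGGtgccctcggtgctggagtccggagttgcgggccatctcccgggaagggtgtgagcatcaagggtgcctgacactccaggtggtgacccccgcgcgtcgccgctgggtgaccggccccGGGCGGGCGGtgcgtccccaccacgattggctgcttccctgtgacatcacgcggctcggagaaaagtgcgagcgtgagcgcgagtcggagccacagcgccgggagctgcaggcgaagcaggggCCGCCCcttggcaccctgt
Htr2c: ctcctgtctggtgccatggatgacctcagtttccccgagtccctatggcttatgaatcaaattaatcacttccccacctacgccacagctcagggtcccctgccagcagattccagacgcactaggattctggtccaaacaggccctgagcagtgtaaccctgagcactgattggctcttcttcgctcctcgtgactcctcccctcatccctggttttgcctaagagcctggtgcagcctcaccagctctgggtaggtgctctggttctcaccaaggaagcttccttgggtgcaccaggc
Adrb1 held 1 core match and 1 GC box, Chrm4 held 4 GC boxes, some of them overlapping, and Chrm3 and Htr2c held neither motif. GC content was 72.3% for Adrb1 and 70.7% for Chrm4, and 57.3% for Chrm3 and 56.3% for Htr2c, beside a median of 52.7% over 32851 windows. The core was in 20.8% of all windows and in 6 of the 32 receptor windows (18.8%), and the GC box in 35.7% of all windows and in 15 of 32 (46.9%). The full element, TGACGTCA, was in 1.79% of all windows and in 0 of 32. A match describes these letters only.

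Among the adrenergic receptors, Adrb1 changed most. Adrb1 encodes the beta-1 receptor, the main beta receptor of cortical neurons. Its RNA was 16.7, 17.1, 17.4 and 18.1 CPM in control mice 1, 3, 6 and 8 and 31.1, 28.7, 21.1 and 29.4 CPM in KO mice 2, 4, 5 and 7. The groups did not overlap, and KO mouse 5 was the lowest of the KO mice. The log2 fold change was 0.67 ± 0.108 (SE, edgeR adjusted p = 0.00264). Its footprints were 16.3, 17.8 and 19.2 CPM in control mice 1, 3 and 9 and 27.1, 22.6 and 24.1 CPM in KO mice 2, 4 and 10, again without overlap, with a log2 fold change of 0.46 ± 0.127 (SE, edgeR adjusted p = 0.00356). Leaving out control mouse 8 and KO mouse 5 gave an RNA value of 0.80 ± 0.083 (edgeR adjusted p = 3.16e-06). It was 0.51 ± 0.159 in mice 5 to 8 alone and 0.59 ± 0.131 with KO mice 2, 4 and 7 summed, and neither passed the threshold (edgeR adjusted p = 0.164 and 0.0753).

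Adra1d, an alpha-1 receptor subtype, was 21.9, 21.9, 26.6 and 25.7 CPM in the control RNA of mice 1, 3, 6 and 8. In the KO RNA of mice 2, 4, 5 and 7 it was 32.3, 31.3, 28.0 and 32.7 CPM, above every control. The log2 fold change was 0.37 ± 0.087 (SE, edgeR adjusted p = 0.0199). The call was lost without control mouse 1 or 3 or without KO mouse 2, 4 or 7 (edgeR adjusted p from 0.0542 to 0.0712), and in mice 5 to 8 alone, where the change was 0.22 (edgeR adjusted p = 0.526). Its footprints were 36.3, 41.6 and 42.6 CPM in controls and 49.2, 39.4 and 48.1 CPM in KO mice 2, 4 and 10. KO mouse 4 fell among the controls there, and the change of 0.17 ± 0.092 was not called (edgeR adjusted p = 0.170).

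The other alpha-1 subtypes, Adra1a and Adra1b, were not called. Adra1a was 13.9 ± 2.66 CPM in the controls and 16.97 ± 0.642 CPM in the KO mice (RNA, SD, n = 4 each). Control mice 1 and 3 were at 11.1 and 12.3 CPM and control mice 6 and 8 at 15.5 and 16.7 CPM, so the spread lay within the controls. It was called in the exon columns (0.27, edgeR adjusted p = 0.0268) and without control mouse 8 and KO mouse 5 (0.40, edgeR adjusted p = 0.0207). Adra1b had the same order, with 22.2 and 22.4 CPM in control mice 1 and 3, 27.0 and 29.5 CPM in control mice 6 and 8, and 26.4 to 31.0 CPM in KO mice. Their RNA log2 fold changes were 0.28 ± 0.122 and 0.18 ± 0.099 (edgeR adjusted p = 0.178 and 0.284). In footprints Adra1a was 13.2 ± 2.16 and 13.5 ± 1.89 CPM and Adra1b 13.0 ± 0.686 and 12.7 ± 0.702 CPM in control and KO mice (SD, n = 3 each), with log2 fold changes of 0.067 and -0.032, the latter 0.027 on plain library sizes. Adra2a, the alpha-2A receptor that limits noradrenaline release and also sits on cortical pyramidal cells, was 11.4 to 13.5 CPM in control RNA, 12.2 to 14.7 CPM in KO mice 2, 4 and 7 and 18.9 CPM in KO mouse 5. Its footprint groups overlapped (16.7 to 20.4 against 16.6 to 22.6 CPM). Its log2 fold changes of 0.22 ± 0.133 in RNA and 0.10 ± 0.134 in footprints were not called (edgeR adjusted p = 0.346 and 0.634). Adra2c, the other alpha-2 subtype tested, was 20.2, 24.1, 24.9 and 25.6 CPM in control RNA and 24.1, 24.2, 26.9 and 26.8 CPM in KO RNA. The groups overlapped, and the log2 fold change of 0.10 ± 0.088 was not called (edgeR adjusted p = 0.542). Its footprints were 2.04 to 4.01 CPM in controls and 0.951 to 3.35 CPM in KO mice and were not tested.

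All of the muscarinic receptor genes except Chrm5 and Chrm2 had a positive log2 fold change in both assays, and Chrm1, Chrm3 and Chrm4 were each called in at least 1 assay. Chrm1 encodes the M1 receptor, the Gq-coupled receptor of cortical and hippocampal pyramidal cells. Its RNA was 116, 121, 134 and 143 CPM in control mice 1, 3, 6 and 8 and 162, 164, 135 and 162 CPM in KO mice 2, 4, 5 and 7. KO mouse 5 lay inside the control range, and the other KO mice lay above it. The log2 fold change was 0.27 ± 0.076 (SE, edgeR adjusted p = 0.0425). Without control mouse 8 and KO mouse 5 it was 0.39 ± 0.054 (edgeR adjusted p = 5.72e-05), and in mice 5 to 8 alone 0.10 ± 0.105 (edgeR adjusted p = 0.760). The call was lost without any single one of control mice 1, 3 and 6 and KO mice 2, 4 and 7 (edgeR adjusted p from 0.0806 to 0.134). It was also lost on plain library sizes, with the title prefix as a block and in the exon columns, where the change was 0.19 (edgeR adjusted p = 0.0536, 0.0548 and 0.0556). Its footprints were 163, 168 and 182 CPM in control mice 1, 3 and 9 and 195, 189 and 203 CPM in KO mice 2, 4 and 10. These groups did not overlap, with a log2 fold change of 0.19 ± 0.045 (SE, edgeR adjusted p = 0.000506). With the spread of all 14 libraries the footprint call was lost (edgeR adjusted p = 0.130).

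Chrm4 encodes the M4 receptor, a Gi-coupled receptor best known from striatal projection neurons that carry the D1 dopamine receptor. Its footprints were 52.3, 50.4 and 51.8 CPM in control mice 1, 3 and 9 and 72.8, 78.3 and 71.8 CPM in KO mice 2, 4 and 10. The 3 controls lay close together and all KO mice were far above them. The log2 fold change was 0.53 ± 0.075 (SE, edgeR adjusted p = 7.50e-09), and it was called under every one of the 12 alternatives run on footprints. Its RNA was 36.5, 39.2, 41.4 and 48.0 CPM in control mice 1, 3, 6 and 8 and 52.5, 56.1, 39.6 and 54.5 CPM in KO mice 2, 4, 5 and 7. KO mouse 5 fell among the controls, and the change of 0.30 ± 0.108 was not called (edgeR adjusted p = 0.109). It was called without KO mouse 5 (0.40, adjusted p = 0.0148), without control mouse 8 (0.38, adjusted p = 0.0203) and without both (0.48 ± 0.066, adjusted p = 5.93e-05, all edgeR). Striatal markers moved too. Their 7 genes summed to 1192 to 1227 CPM in control and 1324 to 1378 CPM in KO footprints, with 4 called higher and 1 lower (11.9% and 13.6% of all genes). In RNA they summed to 581 to 687 and 672 to 704 CPM, with none of the 7 called (7.41% of all genes). Their part in the Chrm4 result was not tested. The outer bounds of Chrm4 overlap those of Mdk in RefSeq, and with the strand setting of the counting not given, reads in any stretch shared by the 2 genes cannot be told apart. How many reads that concerns was not tested.

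Chrm3, the Gq-coupled M3 receptor, was 65.0, 61.2, 66.6 and 62.5 CPM in control RNA (mice 1, 3, 6 and 8) and 74.3, 70.8, 80.6 and 72.4 CPM in KO RNA (mice 2, 4, 5 and 7). All KO mice lay above all controls, and here KO mouse 5 was the highest. The log2 fold change of 0.22 ± 0.063 was just past the threshold (edgeR adjusted p = 0.0478). Leaving out any 1 of the mice except control mouse 8 ended the call (edgeR adjusted p from 0.0586 to 0.124), as did dropping the low-count filter or blocking by title prefix (edgeR adjusted p = 0.0517 and 0.0559), and without control mouse 8 and KO mouse 5 together the change was 0.17 (edgeR adjusted p = 0.0348). The footprints were 47.8, 45.5 and 44.3 CPM in controls and 50.4, 51.4 and 54.2 CPM in KO mice, not overlapping, with a change of 0.19 ± 0.083 that was not called (edgeR adjusted p = 0.0887). Chrm2, the Gi-coupled M2 receptor that also serves as a release-limiting autoreceptor, was 18.8 ± 1.88 and 17.4 ± 0.673 CPM in control and KO RNA (SD, n = 4 each) and 15.8 ± 2.33 and 12.7 ± 1.63 CPM in footprints (SD, n = 3 each). Its changes of -0.11 ± 0.092 in RNA and -0.32 ± 0.156 in footprints were not called (edgeR adjusted p = 0.519 and 0.122). Chrm5, at 2.33 CPM in control RNA and 1.70 CPM in KO RNA, was not called either, and its outer bounds overlap those of Aven in RefSeq. Summed over the 5 genes, the muscarinic level was 237 to 277 CPM in control RNA and 275 to 310 CPM in KO RNA, and 280 to 294 and 333 to 341 CPM in footprints, a sum in which Chrm1 has the most counts.

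In RNA and footprints the serotonin receptors were the only family of the 4 with a called decrease. Htr2c encodes the Gq-coupled 5-HT2C receptor, which is expressed by neurons and at very high levels by the choroid plexus. Its RNA was 59.0, 61.7, 54.8 and 59.9 CPM in control mice 1, 3, 6 and 8 and 41.1, 41.8, 47.2 and 41.7 CPM in KO mice 2, 4, 5 and 7. All KO mice lay below all controls, with KO mouse 5 the highest among them. The log2 fold change was -0.46 ± 0.071 (SE, edgeR adjusted p = 0.00210), and without control mouse 8 and KO mouse 5 it was -0.50 ± 0.063 (edgeR adjusted p = 2.61e-05). In mice 5 to 8 alone it was -0.37 ± 0.114 (edgeR adjusted p = 0.155), and it was -0.42 ± 0.096 with KO mice 2, 4 and 7 as 1 library (edgeR adjusted p = 0.0866). Counted in the exon columns it was smaller, -0.28, and still called. The footprints were 43.8, 46.2 and 51.4 CPM in control mice 1, 3 and 9 and 41.9, 33.1 and 38.7 CPM in KO mice 2, 4 and 10, and KO mouse 2 lay just below the lowest control. Their log2 fold change was -0.32 ± 0.092 (SE, edgeR adjusted p = 0.00460). Leaving out control mouse 9 ended the call (edgeR adjusted p = 0.0503), as did leaving out KO mouse 4 (edgeR adjusted p = 0.0874) or testing with DESeq2 (adjusted p = 0.0525).

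Control mouse 8, whose choroid plexus markers summed to 286 CPM, had 59.9 CPM of Htr2c, inside the range of the other 3 controls (54.8 to 61.7 CPM). KO mouse 5, with 123 CPM of these markers, had 47.2 CPM of Htr2c against 41.1 to 41.8 CPM in the other KO mice. In footprints the choroid plexus markers summed to 18.6 to 22.1 CPM in controls and 9.51 to 15.2 CPM in KO mice, and 2 of the 4 markers tested were called lower, as was 1 of 5 in RNA, beside 13.6% and 3.88% of all genes. Hypothalamic markers also fell, with 4 of 5 called lower in RNA and 5 of 5 in footprints, and their sum was 39.3 to 74.1 CPM in control RNA and 20.2 to 24.2 CPM in KO RNA, and in footprints it was 110.0 to 118 CPM in controls and 41.6 to 47.9 CPM in KO mice. The part of these markers in the Htr2c result was not tested.

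The other 10 serotonin receptor genes tested in RNA were not called in either assay. Htr1b, the Gi-coupled 5-HT1B receptor of axon terminals, came nearest in RNA, with 11.7 to 14.4 CPM in control and 13.9 to 18.6 CPM in KO mice and a change of 0.36 ± 0.110 (edgeR adjusted p = 0.0633). It was called without control mouse 8 and KO mouse 5 (0.45 ± 0.108, edgeR adjusted p = 0.00600). Its footprints were 6.92 to 8.66 CPM in controls and 8.09 to 9.20 CPM in KO mice, overlapping, with a change of 0.18 ± 0.199 that was not called (edgeR adjusted p = 0.558). Htr1a, the 5-HT1A receptor, was 12.9 ± 1.93 and 15.4 ± 0.836 CPM in control and KO RNA (SD, n = 4 each) and 16.1 ± 1.06 and 15.5 ± 0.470 CPM in footprints (SD, n = 3 each). Its changes of 0.25 ± 0.114 and -0.056 ± 0.144 were not called (edgeR adjusted p = 0.194 and 0.825), and the latter was 0.0037 on plain library sizes. Htr5a did not overlap between the groups in either assay, with 12.4 to 13.6 against 14.01 to 16.8 CPM in RNA and 15.3 to 16.5 against 16.8 to 18.4 CPM in footprints, and its changes of 0.20 ± 0.098 and 0.15 ± 0.140 were not called (edgeR adjusted p = 0.237 and 0.472). In all, 5 of the 28 receptor genes tested in RNA and 10 of the 25 tested in footprints had groups that did not overlap, beside 15.2% and 37.4% of all tested genes. In RNA 4 lay above and 1 below, where 7.26% and 7.92% of all genes did, and in footprints 8 lay above and 2 below, where 18.1% and 19.3% of all genes did.

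Htr2a, the Gq-coupled 5-HT2A receptor of deep-layer pyramidal cells, was 38.8, 36.8, 41.5 and 52.8 CPM in control RNA and 40.5, 41.5, 35.7 and 41.0 CPM in KO RNA. Control mouse 8 was the highest and KO mouse 5 the lowest of all libraries, and the change of -0.10 ± 0.103 turned to 0.072 without these 2 mice. Its footprints were 21.0, 22.6 and 22.3 CPM in controls and 21.4, 27.9 and 27.8 CPM in KO mice 2, 4 and 10, not called at 0.23 ± 0.121 (edgeR adjusted p = 0.164). Htr7, a Gs-coupled receptor, was 10.3, 9.54, 9.48 and 11.7 CPM in control RNA and 8.40, 10.2, 8.46 and 12.3 CPM in KO RNA, and 2.36 to 4.79 against 2.38 to 4.60 CPM in footprints. The groups overlapped in both assays, and its changes of -0.062 ± 0.137 and -0.28 ± 0.313 were not called (edgeR adjusted p = 0.832 and 0.564). Htr3a, the channel subunit that marks a class of cortical interneurons, had 8.72 ± 1.52 and 7.61 ± 0.179 CPM in RNA and 7.09 ± 0.701 and 8.19 ± 1.403 CPM in footprints. Htr1f, Htr4, Htr6 and Htr1d were below 10 CPM in every group mean, with RNA log2 fold changes of 0.32, -0.040, 0.38 and -0.040.

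No nicotinic subunit gene was called in either assay (0 of 5 in RNA and 0 of 6 in footprints, edgeR, beside 7.41% and 25.5% of all genes), with 1 of 5 and 2 of 6 at an unadjusted p under 0.05, and DESeq2 called none. The footprint count depends on the scale: on plain library sizes 3 of 6 were called higher, beside 28.4% of all genes called in either direction, Chrna4 and Chrna7 at 0.25 each (edgeR adjusted p = 0.0282 and 0.0479) and Chrna5. Chrna4 and Chrnb2 encode the subunits of the most common nicotinic receptor of the brain, and Chrna7 the subunit of a receptor made of that subunit alone. Chrna4 RNA was 30.6, 29.8, 27.3 and 34.9 CPM in control mice 1, 3, 6 and 8 and 38.2, 38.9, 32.0 and 40.6 CPM in KO mice 2, 4, 5 and 7. KO mouse 5 fell among the controls, and the change of 0.29 ± 0.092 missed the threshold (edgeR adjusted p = 0.0734). It was called once control mouse 8 and KO mouse 5 were left out, at 0.42 ± 0.072 (edgeR adjusted p = 0.000449), and in the exon columns, at 0.21 (edgeR adjusted p = 0.0455). Its footprints were 44.1, 39.9 and 39.5 CPM in controls and 46.4, 50.3 and 43.3 CPM in KO mice, overlapping, and the change of 0.19 ± 0.089 was not called (edgeR adjusted p = 0.115). Its partner Chrnb2 was 37.6 ± 2.93 and 36.6 ± 1.22 CPM in control and KO RNA and 47.8 ± 3.73 and 49.1 ± 6.01 CPM in footprints, with changes of -0.043 ± 0.074 and 0.045 ± 0.087 that were not called (edgeR adjusted p = 0.781 and 0.759). The outer bounds of Chrnb2 overlap those of Adar in RefSeq, and reads in any stretch they share cannot be assigned to 1 of them without strand. Chrna7 was 29.1 to 32.0 and 27.2 to 30.7 CPM in RNA, with a change of -0.049 ± 0.072 that was not called (edgeR adjusted p = 0.734). Its footprints, at 32.3, 34.1 and 33.5 CPM in controls and 36.9, 39.8 and 37.2 CPM in KO mice, did not overlap, and the change of 0.19 ± 0.097 was not called (edgeR adjusted p = 0.160). Chrna5, an accessory subunit, was 2.90 and 2.99 CPM in control and KO RNA and 4.44 and 6.66 CPM in footprints, with a footprint change of 0.57 ± 0.247 (edgeR adjusted p = 0.0792). Chrna3 and Chrna5 are known for high expression in the habenula. The 4 habenular markers summed to 67.2 to 72.3 CPM in control and 86.3 to 92.0 CPM in KO footprints and to 41.5 to 51.8 and 46.9 to 51.8 CPM in RNA, nearly all of it Tac1, and the other 3 averaged at most 1.38 CPM in any group. Their part in the values of these subunits was not tested. The outer bounds of Chrna5 and Chrna3 overlap at their ends in RefSeq, and reads in the shared stretch cannot be told apart without strand.

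**Figure D2:**
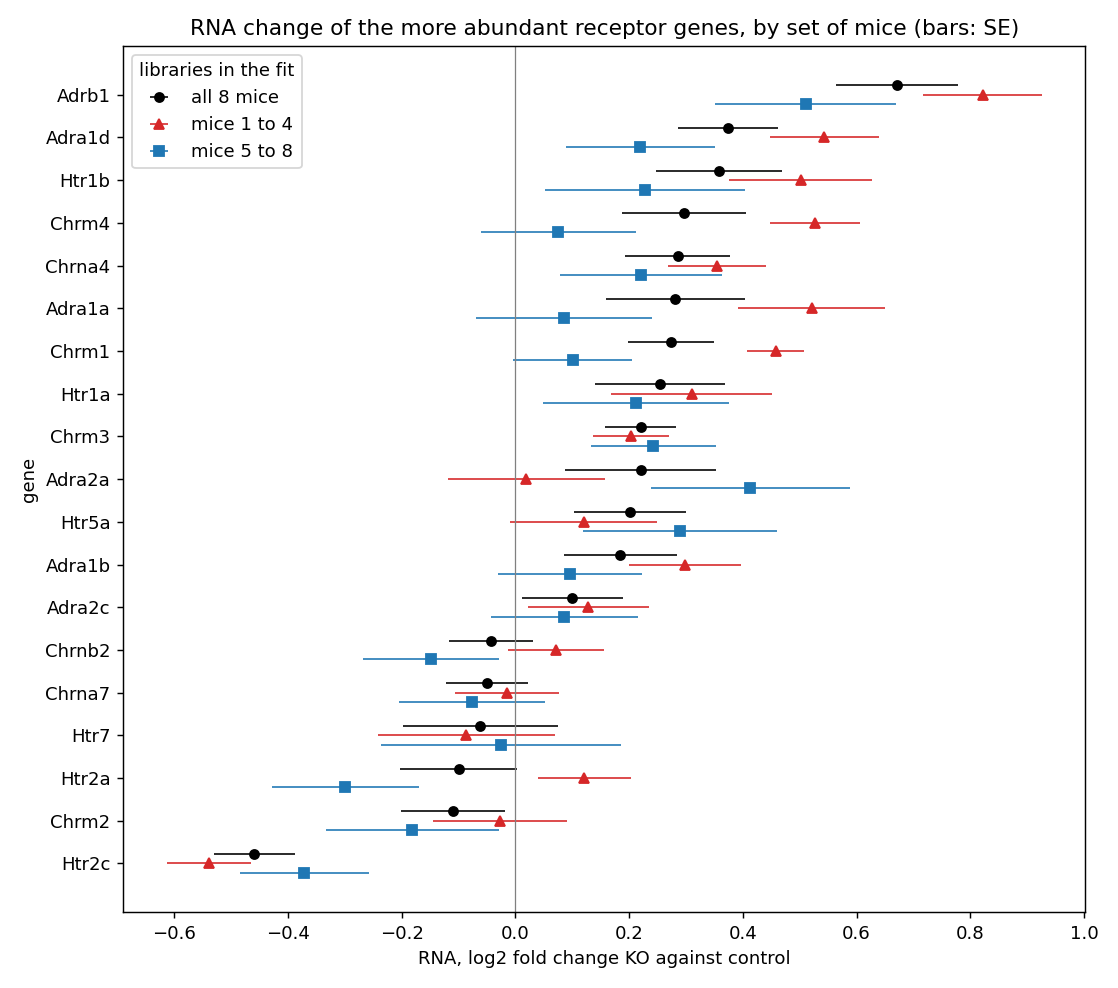
RNA log2 fold change of KO relative to control for the 19 receptor genes described in full, those called or averaging 10 CPM or more in controls, from all 8 mice (circles), mice 1 to 4 (triangles) and mice 5 to 8 (squares), with SE as bars. Adrb1 is 0.82 in mice 1 to 4 and 0.51 in mice 5 to 8, and Chrm4 is 0.53 and 0.075.

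Libraries of RNA from mice 5 to 8 share a title prefix, and those of mice 1 and 2 and of mice 3 and 4 carry others. In mice 1 to 4, 11 of 29 receptor genes were called in RNA, 10 higher and 1 lower, beside 24.1% of all genes. The set with 0 calls, mice 5 to 8, holds control mouse 8 and KO mouse 5. Adrb1 was 0.82 ± 0.104 in mice 1 to 4 and 0.51 ± 0.159 in mice 5 to 8, and Htr2c was -0.54 ± 0.074 and -0.37 ± 0.114. Chrm1 was 0.46 ± 0.051 and 0.10 ± 0.105, Chrm4 0.53 ± 0.079 and 0.075 ± 0.136, and Adra1a 0.52 and 0.085. Chrm3 went the other way in size, with 0.20 ± 0.067 and 0.24 ± 0.110. The difference between the sets was not tested. A block by title prefix groups mice 1 and 2, 3 and 4, and 5 to 8. With it, 3 of 28 receptor genes were called in RNA, Adra1d, Adrb1 and Htr2c, beside 7.09% of all genes.

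**Figure D3:**
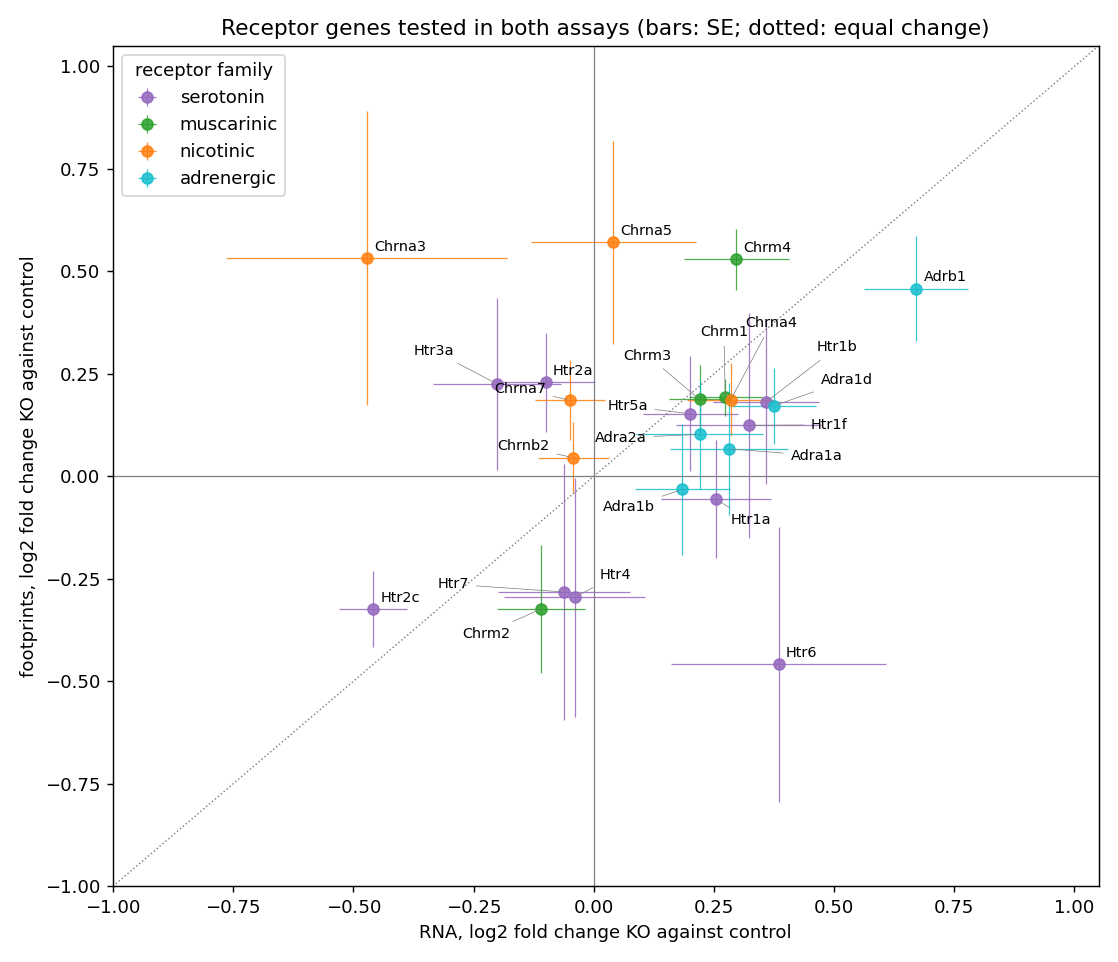
Log2 fold change of KO relative to control in RNA (horizontal) and footprints (vertical) for the 24 receptor genes tested in both assays, coloured by family, with SE as bars and the line of equal change dotted. Adrb1 lies at 0.67 in RNA and 0.46 in footprints, Htr2c at -0.46 and -0.32, and the points far from the line, such as Chrna3 and Htr6, have wide bars.

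Footprints relative to RNA, the translational efficiency (TE), were tested as the difference of the 2 log2 fold changes in a single model. The edgeR fit uses 1 spread per gene for both assays, although some RNA libraries differed more within a group than footprint libraries did. It does not pair mice 1 to 4 across the assays. By edgeR 0 of 24 receptor genes were called, beside 7.84% of all 12145 genes (3.4% higher, 4.44% lower). DESeq2 called 0 of 16, beside 11.4% of all 8847 genes it tested. At an unadjusted p under 0.05 edgeR gave 1 of 24, Chrna3, with a TE change of 0.996 ± 0.439 at 1.34 CPM in control RNA and 2.10 CPM in control footprints (adjusted p = 0.173). The TE change was -0.22 ± 0.176 for Adrb1, 0.13 ± 0.120 for Htr2c, -0.088 ± 0.106 for Chrm1 and 0.22 ± 0.148 for Chrm4. Over the 24 genes the median was -0.12, with 8 above 0 and 16 below, beside -0.011 over all genes tested. On plain library sizes 10 were above 0, and the share of higher among all called genes went from 43.4% to 68.2%. In a paired fit with mouse as a replicate block, for mice 1 to 4, which entered both assays, 2 of 25 were called beside 15.3% of all genes. These were Adra1a at -0.64 (edgeR adjusted p = 0.0432) and Chrm1 at -0.25 (edgeR adjusted p = 0.0186). Without the RNA of control mouse 8 and KO mouse 5, 1 of 24 was called, Chrm1, at -0.21 (edgeR adjusted p = 0.0495), beside 16.8% of all genes. With KO mice 2, 4 and 7 and control mice 1 and 3 summed, 0 of 25 were called beside 4.77% of all genes, and Chrm1 was -0.0026 and Adra1a -0.18 (edgeR adjusted p = 0.995 and 0.740).

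**Figure D4:**
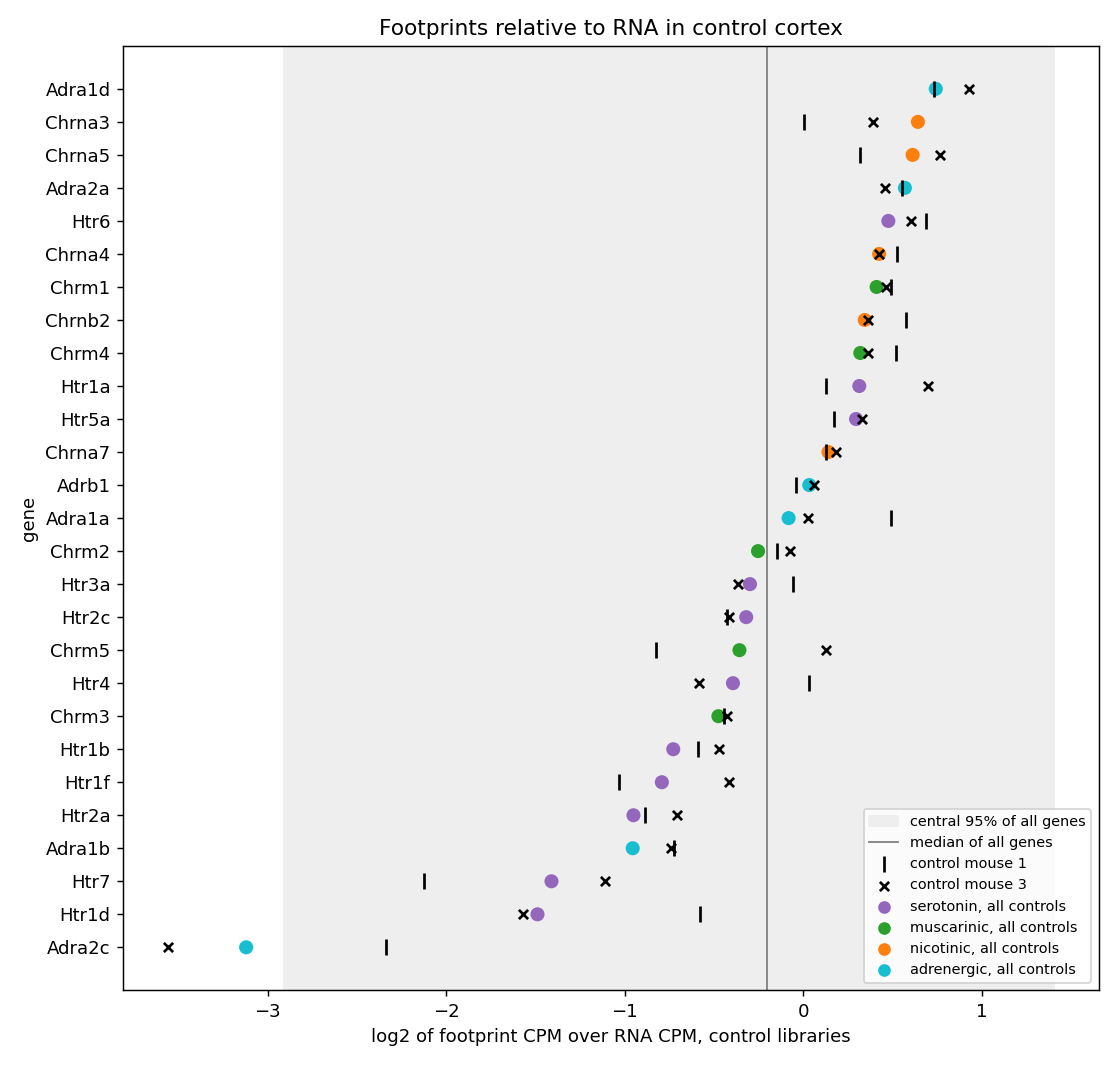
Log2 ratio of footprint CPM to RNA CPM in control mice for receptor genes with a ratio, ordered by value and coloured by family, from all control libraries (points) and from control mice 1 (bars) and 3 (crosses), which were measured in both assays. The grey band spans -2.91 to 1.41, the central 95% of all genes, and Adra2c at -3.12 is the one plotted gene outside it.

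In control cortex the receptor genes differed in how many footprints they had for their RNA. This ratio compares assays within a gene and was not tested. Its median was -0.17 over 28 receptor genes and -0.21 over 13449 genes, and by family it was 0.43 for nicotinic, -0.082 for adrenergic, -0.25 for muscarinic and -0.39 for serotonin receptors. Adra2c was lowest. It had 922 RNA counts over the 4 controls and 41 footprint counts over the 3 controls, a log2 ratio of -3.12, at percentile 2.09 of all genes. Its ratio was -2.34 in control mouse 1 and -3.56 in control mouse 3, and -4.66 and -2.85 in KO mice 2 and 4. Adra2a, the other alpha-2 gene with a ratio, stood at 0.57 and percentile 82.9. Adra1d was highest at 0.74 and percentile 87.8, while Adra1b, of the same subfamily, was at -0.96. Htr7 was at -1.41, Htr2a at -0.95 and Htr1b at -0.73, against 0.31 for Htr1a and 0.30 for Htr5a. Chrna4 and Chrnb2, which assemble together, had ratios of 0.43 and 0.34. The region counted is not given in the sources used here, and it bears on such ratios. RNA counts in the columns used were 22.8% of the counts in the exon columns for Htr1a, 31.1% for Htr2c, 58.0% for Adra2c and 99.7% for Htr1b, with a median of 64.7% over genes.

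The enzymes and transporters that supply and clear the transmitters were read beside the 7.41% of all genes called in RNA and 25.5% in footprints. Of the serotonin list, 1 of 7 tested genes was called in RNA, Ddc, the decarboxylase of serotonin and dopamine synthesis, which fell by 0.76 on the log2 scale (SE 0.106, edgeR adjusted p = 0.00108). In footprints 1 of 6 was called, the low-affinity transporter Slc29a4 at -0.54 (edgeR adjusted p = 0.0277). Of the acetylcholine list 0 of 8 were called in RNA (2 at an unadjusted p under 0.05, edgeR), and 1 of 7 in footprints, the choline transporter Slc44a1 at -0.23 (edgeR adjusted p = 0.00763). Of the noradrenaline list 0 of 4 were called in either assay, with 0 at an unadjusted p under 0.05 (edgeR). DESeq2 called none of the acetylcholine or noradrenaline genes, and neither Slc29a4 nor, in footprints, Lypd1. The RNA counts of the 3 lists were 3, 1 and 2 (of 7, 8 and 4) without control mouse 8 and KO mouse 5, where 22.6% of all genes were called. The accessory proteins of nicotinic receptors had 2 higher and 3 lower of 8 in footprints, beside 11.9% and 13.6% of all genes. Lynx1, a membrane-anchored brake on nicotinic receptors, rose by 0.39 (SE 0.0555, edgeR adjusted p = 1.42e-08), while its relatives Lypd1 and Ly6h fell by 0.28 and 0.20 on the log2 scale (edgeR adjusted p = 0.0182 and 6.89e-05). The alpha-7 chaperone gene Tmem35 fell by 0.22 on the log2 scale (edgeR adjusted p = 0.00560). Lypd1 also fell in RNA, by 0.48 on the log2 scale (edgeR adjusted p = 0.00801).

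Genes of the signalling arms below the receptors were called in both directions. In the Gq arm 0 of 13 genes were called in RNA (1 at an unadjusted p under 0.05, edgeR, and 0 with DESeq2), and 2 higher and 4 lower of 12 in footprints, beside 7.41% of all genes in RNA and 25.5% in footprints. Itpr1, the calcium release channel opened by inositol trisphosphate, fell by 0.27 on the log2 scale in footprints (adjusted p = 3.66e-13) with 0.093 in RNA, and its TE change of -0.38 was called (edgeR adjusted p = 0.00105). Itpr2, a related channel, had a called footprint change of -0.38, and the Gq-family gene Gna11 had 0.22. In the Gi arm the potassium channel genes Kcnj3 and Kcnj9, which open on Gi signalling, rose in RNA by 0.21 and 0.31 (edgeR adjusted p = 0.0434 and 0.0110), 2 of 9, and Kcnj3 at 0.26 and Gnaz at 0.23 were the 2 of 8 called in footprints. In the Gs arm 3 of 14 genes rose in RNA, the adenylyl cyclases Adcy1 and Adcy9 and the protein kinase A catalytic subunit Prkaca, by 0.18, 0.24 and 0.23. In footprints 5 were higher and 3 lower of 14, among them Prkaca, Adcy2 and Adcy9 at 0.21 each and Adcy5 at -0.14. The footprint calls of Gnaz, Adcy9 and Adcy5 were lost with DESeq2. Prkacb had a called TE change of 0.22 and Adcy5 one of -0.25. Without control mouse 8 and KO mouse 5 the RNA calls were 2 of 13 in the Gq arm, 4 of 9 in the Gi arm and 6 of 14 in the Gs arm, beside 22.6% of all genes.

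Regulators that end receptor signalling had 1 of 21 called in RNA, beside 7.41% of all genes, and 6 higher and 3 lower of 20 in footprints, beside 11.9% and 13.6%. Whether these shares differ was not tested. Rgs2, which speeds the shut-off of Gq, had 69.7 ± 5.71 and 69.7 ± 2.19 CPM in control and KO RNA (SD, n = 4 each) and 68.3 ± 5.23 and 111 ± 0.718 CPM in footprints (SD, n = 3 each). Its footprint change was 0.70 ± 0.064 (adjusted p = 2.61e-16) and its TE change 0.70 ± 0.098 (edgeR adjusted p = 0.000106), so footprints rose beside an RNA change of -0.0034. Rgs4, a regulator of Gi and Gq abundant in cortex, also had a called TE change, of 0.28 (edgeR adjusted p = 0.0187). Rgs12 fell in RNA and footprints by 0.38 and 0.55 on the log2 scale, and Rgs14 and the arrestin gene Arrb2 fell in footprints by 0.44 and 0.36 on the log2 scale. In RNA 6 of the 21 were called without control mouse 8 and KO mouse 5, beside 22.6% of all genes. For comparison, of 10 dopamine, histamine and trace amine receptor genes, 1 of 7 tested was called in RNA and 2 of 6 in footprints, all higher. They were the histamine receptor gene Hrh3 at 0.37 in RNA and 0.32 in footprints, and the dopamine D1 receptor gene Drd1a at 0.26 in footprints, a call lost with DESeq2. Whether any of these shares differs from that of the serotonin, acetylcholine and adrenergic receptors was not tested.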

How the data were processed

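RNA-seq (8 libraries) and ribosome profiling (6 libraries) of mouse cortex were analysed from 1 table in which the authors deposited whole-number counts per gene, without normalization. Bowtie2, STAR 2.5, featureCounts and Subread 1.4.6 are named, with the builds mm9 and mm10, per the submitters' processing notes, which do not give their roles. The strand setting, annotation and counted region are not given in the sources used here. Each RNA library has 2 count columns, and the one without the suffix exon was used because it covers the same genes as the footprints. In 2849 genes it and the footprint columns hold no value. Groups and mouse numbers come from the labels, which name separate mice.

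Counts were tested with edgeR 4.0.16 in R 4.3.3: TMM scaling, the filterByExpr filter (minimum count 10), a quasi-likelihood F test per assay, and for TE the interaction of genotype and assay over all 14 libraries. P-values were adjusted over all tested genes (Benjamini-Hochberg), and a gene was called at an adjusted p under 0.05, two-sided. SE is the log2 fold change divided by the square root of F. On simulated counts with 1.5-fold changes the tests recovered 80.8% of changed genes in RNA, 69.7% in footprints and 58.6% in TE. Smaller changes, which include most of the called receptor changes, were not simulated. Alternatives included DESeq2 1.42.0, other scalings, no filter, libraries left out, summed or blocked, and the exon columns. Mice 1 to 4 were paired across assays because the labels give the same animals.

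The receptor genes and the other gene lists were chosen with earlier results of these data known. Levels and fold changes in each assay tested were given for receptor genes called in any test or with a control mean of at least 10 CPM, and from other lists called genes of at least 1 CPM, at most 4 per list and test by size of change. Levels per coding length had been planned, but coding lengths were not used here, so no levels were ranked between genes. The near-identical libraries of KO mice 2, 4 and 7 were kept as separate samples, as the labels number them, with their sum as an alternative. Values of 1 receptor gene and 1 gene of the signalling lists are not reported here.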

Additional observations from a re-analysis of the deposited data

Results flagged for a closer look

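In 4 of 38 groups of 4 RNA libraries, 2 groups for each of the 19 receptor genes with full values, 1 library lay far from the other 3, with a gap to its nearest neighbour above the critical share of the group's range in Dixon's test. About 1.9 such groups are expected by chance, 1 in 20. For 3 of the genes the library was KO mouse 5. Chrm1, the M1 receptor gene, was 135 CPM in KO mouse 5 and 162 to 164 CPM in the other KO mice, a gap of 0.929 of the range. Htr2c was 47.2 CPM there and 41.1 to 41.8 CPM in the others (0.892), and Htr2a was 35.7 CPM there and 40.5 to 41.5 CPM in the others (0.831). In each of Chrm1 and Htr2c the outlying value lay on the side of the controls. KO mouse 5 also had the lower immediate early gene sum (514 CPM against 1164 to 1202 CPM) and the higher choroid plexus marker sum (123 against 8.58 to 12.7 CPM) of the KO mice, and the part of either was not tested. The fourth gene was Htr5a, at 16.8 CPM in KO mouse 7 and 14.01 to 14.3 CPM in the other KO mice (0.911).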

How the results depend on the processing

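The count of receptor genes called in RNA (5) was within 1.5 times under DESeq2's size factors, plain library sizes, no filter, DESeq2 and the exon columns. It was 3 when blocked by title prefix, 0 with KO mice 2, 4 and 7 summed, 0 with control mice 1 and 3 also summed, 0 in mice 5 to 8 only, 11 in mice 1 to 4 only, 10 without control mouse 8 and KO mouse 5 (added after seeing the data), and 2 to 8 when each mouse was left out in turn. All tested genes called went from 1001 to 958, 79, 36, 88, 3273, 3063 and 356 to 1763 in these settings, in this order. The footprint count (4) was 9 on plain library sizes and 3 to 5 otherwise, and the calls over all genes (3102) were 1821 with DESeq2 and 1676 with a fit over all 14 libraries. The TE count (0) was 2 with mouse as a replicate block and 1 without the RNA of control mouse 8 and KO mouse 5, and over all genes (952) it was 1864 and 2035, 580 with the sums and 419 to 1287 leaving out 1 mouse. The mouse block changed no other TE call. Adrb1 and Htr2c were called in RNA in 16 of 19 alternatives, at 0.55 to 0.82 and -0.54 to -0.28 where called, and in footprints Chrm4 and Adrb1 in 12 of 12, Chrm1 in 11 and Htr2c in 9. Signs turned only in changes that were not called. In RNA without control mouse 8 and KO mouse 5 the values were 0.013 for Chrna7, 0.032 for Chrnb2, 0.072 for Htr2a and 0.070 for Htr7, and in mice 1 to 4 only Chrnb2 and Htr2a were 0.072 and 0.12. Leaving out 1 mouse at a time gave -0.079 to 0.014 for Chrnb2, -0.16 to 0.027 for Htr2a and -0.19 to 0.012 for Htr7 in RNA. In footprints it gave -0.030 to 0.19 for Adra1a, -0.081 to 0.014 for Adra1b, -0.0018 to 0.21 for Adra2a and -0.036 to 0.13 for Chrnb2, and in TE -0.23 to 0.015 for Adra2a, -0.072 to 0.00050 for Chrm3 and -0.10 to 0.011 for Htr5a. On plain library sizes Adra1b and Htr1a were 0.027 and 0.0037 in footprints, and Chrm3 and Htr5a 0.025 and 0.010 in TE. With the replicate block Adra2a, Chrnb2 and Htr5a were 0.060, -0.098 and 0.015 in TE, and without the RNA of control mouse 8 and KO mouse 5 Adra2a and Chrm3 were 0.0026 and 0.0021. The cause was not tested. Depth limits the 15 genes in neither test and the genes under 10 CPM.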

Other observations

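Markers of other cell types were read beside the receptors, since some receptors mark a cell class, as Htr3a does. The counts called stand beside 7.41% of all genes in RNA and 25.5% in footprints. The 6 markers of Htr3a interneurons summed to 820 to 918 CPM in control and 745 to 791 CPM in KO RNA, with 2 called lower, and to 987 to 1037 and 980 to 1011 CPM in footprints, with 2 higher and 2 lower. The 5 excitatory neuron markers summed to 2049.6 to 2327 CPM in control and 2645 to 2919 CPM in KO RNA with 2 called higher, and to 4374 to 4489 and 4138 to 4246 CPM in footprints with 2 higher and 1 lower. Of 5 deep-layer markers 2 were higher and 1 lower in RNA and 2 higher in footprints. Of 5 inhibitory neuron markers 1 was higher and 1 lower in RNA and 2 higher and 1 lower in footprints.

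Glial and vascular markers were read beside the same shares. In RNA 1 of 5 oligodendrocyte, 1 of 2 oligodendrocyte precursor and 2 of 5 astrocyte markers were lower, and 0 of 5 microglial, 0 of 5 endothelial and 0 of 5 mural markers were called (edgeR). In footprints 1 oligodendrocyte marker was higher and 2 lower, both precursor markers and 1 astrocyte marker were lower, 0 microglial markers were called, 2 endothelial markers were higher and 1 lower, and 1 mural marker was higher. Of 3 hippocampal markers tested 2 were lower in both assays. Of the habenular markers only Tac1 was tested, and it was higher in footprints. The others did not pass the filter on low counts. The 5 markers of cholinergic neurons, of which none was called in either assay by edgeR, summed to 28.2 to 31.5 CPM in control and 29.7 to 31.6 CPM in KO RNA. In footprints they summed to 36.2 to 38.2 CPM in control and 37.0 to 47.1 CPM in KO mice.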
